A study of Homo sapiens with 6 samples.

Results

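The genes described here are those of the extrinsic death receptor pathway: FAS, the 4 TRAIL receptors TNFRSF10A, TNFRSF10B, TNFRSF10C and TNFRSF10D, the TNF receptor TNFRSF1A, the adaptor FADD, the initiator protease CASP8 and its inhibitor CFLAR. They were taken by symbol from the table of read counts, where all 9 were found among 22354 loci, and all 9 passed the filter on low counts that left 14860 loci to be tested. RNA-seq was carried out on HTori-3.1, a thyroid cell line labelled as normal, with 3 libraries labelled control (genotype given as wild type) and 3 labelled BMAL1 knockout, made with a lentivirus that carried Cas9 and an sgRNA against BMAL1. Both groups had received etoposide, a topoisomerase II inhibitor that breaks DNA, at 2 μM, for 12 h by the sample labels and 24 h by the methods. The study asked how loss of BMAL1, a transcription factor of the circadian clock, alters expression in these cells under senescence-inducing treatment. Knockout cells were grown from selected single clones, and how many clones the 3 libraries represent is not given in the sources used here. Nothing says that the replicates came from separate cultures, so p-values measure only the spread between these libraries, which may be technical. Sequencing depth differed, with 26893063, 27029060 and 28513703 counts in the control libraries and 43148059, 29860233 and 43563391 in the BMAL1-knockout-labelled libraries.

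Death receptors are membrane proteins that carry an intracellular death domain. FAS ligand on FAS, or TRAIL on TNFRSF10A or TNFRSF10B, recruits FADD, which brings in caspase-8 to start the caspase cascade, and the CFLAR protein cFLIP competes with caspase-8 in this complex. TNFRSF10C and TNFRSF10D bind TRAIL without a working death domain and are known as decoy receptors, while TNFRSF1A mainly signals to NF-κB through a ubiquitin-dependent complex and can turn to cell death when that complex is disturbed. FAS and TNFRSF10B are known targets of p53 after DNA damage, and FAS has been studied in the thyroid for its part in autoimmune thyroiditis.

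The targeted gene was examined first, as a check of the labels. BMAL1 (ENSG00000133794.20, chr11:13276652-13387266 of hg38, forward strand) had 304, 326 and 409 reads in the control libraries and 764, 603 and 860 in the BMAL1-knockout-labelled libraries, which is 12.7 ± 1.70 and 19.0 ± 0.987 CPM (counts scaled to library size with edgeR's TMM factors; SD, n = 3). The transcript was thus higher in all 3 libraries labelled BMAL1 knockout, against their label, and the directions given throughout are those of the labels. BMAL1 shares 421 exonic bases with ENSG00000290083, a noncoding RNA on the opposite strand without an entry of its own in the count table. The use of strand in counting is unknown, so the part of that RNA in the BMAL1 count cannot be told. A guide-directed cut alters the gene and not necessarily the amount of its RNA, and the BMAL1 protein was not measured in these data. By the methods, cells of the selected clones were checked for loss of the protein by western blot. The log2 fold change of BMAL1 was 0.58 (standard error 0.11; edgeR quasi-likelihood test, Benjamini-Hochberg adjusted p = 0.0237). This call was lost without control replicate 1, control replicate 2, knockout replicate 2 or knockout replicate 3, where the edgeR Benjamini-Hochberg adjusted p was 0.105, 0.129, 0.0817 and 0.0598, with log2 fold changes of 0.50, 0.55, 0.55 and 0.56. Both BMAL1 target genes examined were lower. NR1D1, which encodes the clock repressor REV-ERBα, stood at 7.75, 7.11 and 6.86 CPM in the control libraries and 3.07, 3.24 and 2.84 CPM in the BMAL1-knockout-labelled ones. NR1D2, which encodes REV-ERBβ, stood at 64.9, 61.8 and 77.8 CPM against 42.0, 37.5 and 39.4 CPM. Neither gene had overlapping groups, and their log2 fold changes were -1.25 and -0.78 (edgeR, Benjamini-Hochberg adjusted p = 0.00121 and 0.00277). NR1D1 shares 473 exonic bases with THRA on the opposite strand.

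Markers of the cells were examined next. Of 8 thyroid follicular markers, 5 had a mean under 10 reads per library, among them TG, TSHR and SLC5A5, and NKX2-1 had 0 reads in all 6 libraries, so transcripts of these thyroid genes were absent or nearly so from cells labelled thyroid. NKX2-1 and, among the leukocyte markers below, CD68 share exonic bases with another gene on the same strand, so their counts are uncertain. PAX8, a thyroid transcription factor, was the most abundant of the list and made up 69.0% of its summed level. It had a log2 fold change of -0.28, FOXE1 (48.0 and 39.99 CPM, groups not overlapping) one of -0.26 and HHEX (9.999 and 10.4 CPM) one of 0.06, and edgeR called none of them, while FOXE1 and PAX8 had an unadjusted p under 0.05. Epithelial keratins were abundant, led by KRT8 at 1408 ± 41.4 CPM in the control libraries and 1157 ± 8.11 CPM in the BMAL1-knockout-labelled ones (SD, n = 3). KRT18, its partner keratin, fell from 852 ± 9.45 to 602 ± 44.2 CPM (SD, n = 3), a log2 fold change of -0.50 (Benjamini-Hochberg adjusted p of the edgeR test = 0.00588), and without control replicate 2 its edgeR Benjamini-Hochberg adjusted p was 0.0561. The other tested epithelial markers had values above 0, with log2 fold changes of 0.10 for KRT7, 0.23 for KRT19 and 1.55 for EPCAM, the last on 0 to 17 reads, so that the median of the 5 tested was 0.10. KRT8 and KRT18 share exonic bases on opposite strands. The summed level of the 6 epithelial markers was 2983, 3012 and 2846 CPM of the library totals in the control group and 2512, 2537 and 2607 CPM in the other. Among 8 leukocyte markers, CD3E, CD3D and MS4A1 had 0 reads in all 6 libraries, CD68 was the most abundant, and the summed level was 19.3, 19.7 and 17.6 CPM against 14.1, 12.8 and 13.3 CPM. PTPRC, which encodes the leukocyte phosphatase CD45, fell from 6.40 ± 0.145 to 2.36 ± 0.341 CPM (SD, n = 3), a log2 fold change of -1.42 (Benjamini-Hochberg adjusted p of the edgeR test = 0.00107). Of the 8 leukocyte markers 3 were tested, and CD14 went the other way, with 7, 9 and 18 reads against 16, 32 and 48 and a log2 fold change of 0.97 that was not called. Endothelial markers summed to between 1.51 and 2.49 CPM, with VWF the most abundant of 5. Of 7 fibroblast markers, COL1A1 made up 97.7% of a summed level between 710 and 1006 CPM, and LUM and DCN had 0 reads in all 6 libraries. In RNA from whole cultures, fewer cells of a kind and less RNA per cell cannot be told apart, and the part of these marker shifts in the results on the receptors was not tested.

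FAS (ENSG00000026103.25) lies at chr10:88953813-89029605 on the forward strand of hg38. It was measured at 36.2, 35.0 and 31.9 CPM in the control libraries and at 57.8, 53.5 and 45.7 CPM in the BMAL1-knockout-labelled libraries. Every library labelled BMAL1 knockout lay above every library labelled control, and the lowest of them still stood clear of the highest control. The means were 34.3 ± 2.25 and 52.3 ± 6.12 CPM (SD, n = 3), a log2 fold change of 0.61 with a standard error of 0.10, or 1.52-fold (95% CI 1.30 to 1.78). FAS was the member that passed the test over all loci (edgeR quasi-likelihood test, Benjamini-Hochberg adjusted p = 0.0109). A two-sided exact permutation test on log2 CPM gave p = 0.1, the smallest value that 3 libraries against 3 allow. Without control replicate 2 or control replicate 3 the log2 fold change of FAS was 0.62 and 0.56 and its edgeR Benjamini-Hochberg adjusted p was 0.0616 and 0.0711, so that no member passed in these fits. Its adjusted p stayed under 0.05 in the other 15 of 17 alternatives, over which the log2 fold change lay between 0.53 and 0.70.

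Reads of FAS cannot be told apart from those of overlapping genes where the use of strand in counting is unknown, as here. ACTA2, the smooth muscle actin gene, runs on the opposite strand and shares 387 exonic bases with FAS. It had 48, 54 and 46 reads in the control libraries and 160, 109 and 142 in the BMAL1-knockout-labelled ones, between 4.94% and 7.01% of the FAS count in the same library. ACTA2 was also higher in the libraries labelled BMAL1 knockout. STAMBPL1, on the same strand, shares 166 exonic bases with FAS and was at 28.4 ± 1.82 and 23.9 ± 2.44 CPM (SD, n = 3). Its count was between 40.9% and 95.6% of the FAS count. The log2 fold change of STAMBPL1 was -0.24 (edgeR, Benjamini-Hochberg adjusted p = 0.244). An antisense RNA, ENSG00000286116, shares 1899 exonic bases with FAS and has no entry of its own in the count table. The part of these overlapping genes in the FAS count and in its difference between the groups was not tested.

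**Figure D1:**
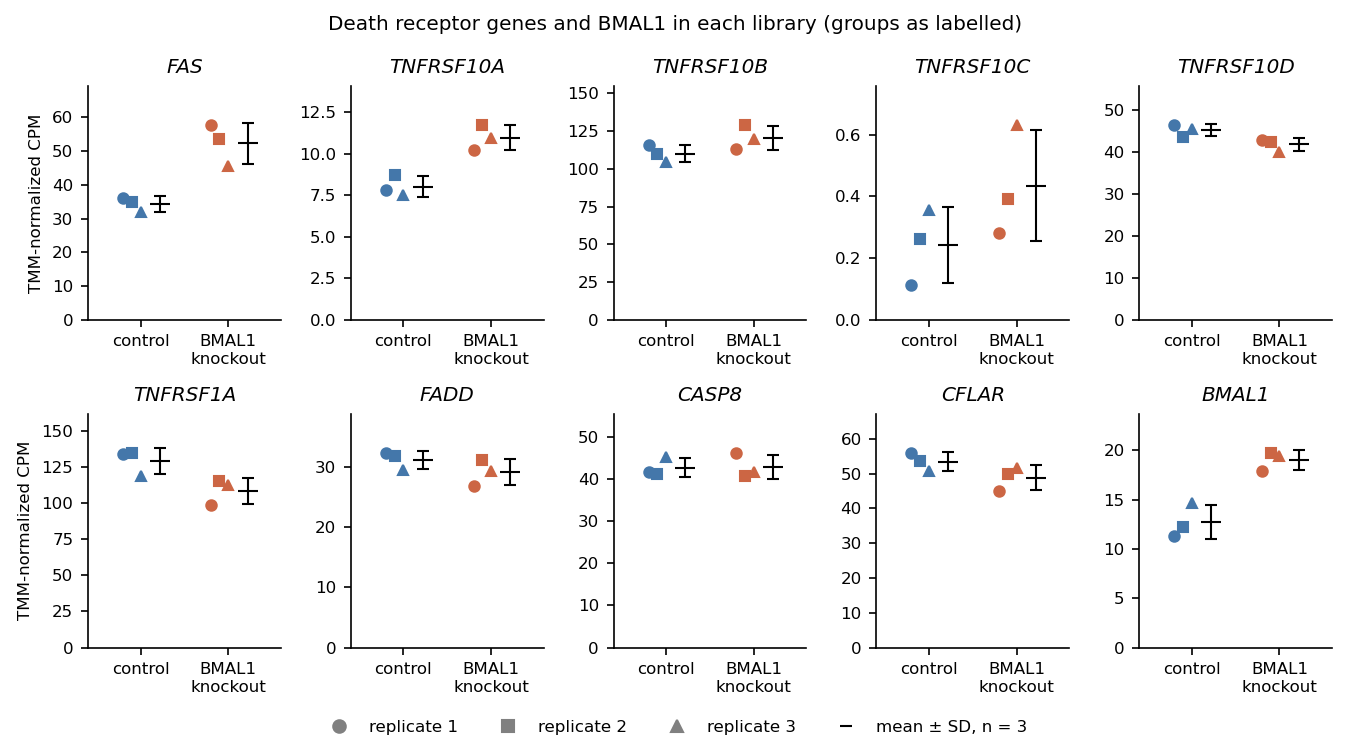
TMM-normalized CPM of the 9 death receptor pathway genes and of BMAL1 in each library, by labelled group, with a marker shape for each replicate and the mean ± SD beside the points (n = 3). FAS lies between 31.9 and 36.2 CPM in the control group and between 45.7 and 57.8 CPM in the group labelled BMAL1 knockout, and BMAL1 lies higher in the latter group as well.

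Promoter sequences were taken from RefSeq (GRCh38.p14), in windows from 250 bases before to 50 bases after each annotated start. They are shown because BMAL1 with CLOCK binds the E-box CACGTG and because FAS was the member that passed the test. The promoter file supplied for this work held 12 windows for 5 of the 9 members, FAS, TNFRSF1A, FADD, CASP8 and CFLAR; TNFRSF10A, TNFRSF10B, TNFRSF10C and TNFRSF10D had no entry in that file, and their promoters were not examined. The E-box CACGTG, which reads the same on both strands, was in 0 of these 12 windows and in 7.26% of all 35116 windows. Its variant CACGTT, searched on both strands, was in 1 member window, that of an alternative FAS start, and in 5.34% of all windows. The GC box GGGCGG, the motif of the factor SP1, was in 7 of the 12 member windows on either strand and in 44.95% of all windows, a common element. The AP-1 site TGACTCA was in 2 member windows, both of CASP8, and in 4.95% of all windows. A letter match is a description, and its absence says only that these letters are not in the window. The search also took in NR1D1, NR1D2 and the called pathway genes described further on, TNFAIP3, BIRC3 and PTPN13. NR1D1 had the variant CACGTT 168 bases before an annotated start and no CACGTG. PTPN13 had neither, and no match was recorded for BIRC3. A relation between E-boxes and the direction of change was not tested. Below are 30 bases around some of the matches, 5′ to 3′ on the forward strand with the motif in capitals. They are given for FAS, for TNFAIP3 and for the clock gene NR1D2.
FAS, GC box 60 bases before an annotated start, chr10:88990726-88990755: ctggagcctcagGGGCGGgcactggcacgg
FAS, E-box variant 227 bases before an alternative start, chr10:88991192-88991221: accactgcgctcCACGTTgaggtgggcgtg
TNFAIP3, E-box 78 bases before the start, chr6:137867169-137867198: gacccagagagtCACGTGactttggaaagt
NR1D2, E-box 155 bases before an alternative start, chr3:23945954-23945983: ggcgggcggggaCACGTGaggccgctcggc
NR1D2, E-box 105 bases before the same start, chr3:23946004-23946033: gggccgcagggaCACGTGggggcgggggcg
Both FAS stretches lie in exons of annotated FAS transcripts and, on the opposite strand, of ENSG00000286116, and the E-box variant also lies in an exon of ACTA2 on that strand. The TNFAIP3 stretch lies upstream of TNFAIP3 in an intron of WAKMAR2 on the opposite strand, and the NR1D2 stretches lie in introns of NR1D2 and, on the opposite strand, NKIRAS1.

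The 4 TRAIL receptor genes lie side by side on chromosome 8. TNFRSF10A (ENSG00000104689.10, chr8:23190452-23225102, reverse strand), which encodes the death receptor DR4, was at 7.83, 8.71 and 7.50 CPM in the control libraries and at 10.2, 11.7 and 11.0 CPM in the BMAL1-knockout-labelled ones. Again each library labelled BMAL1 knockout was above each control, by a smaller margin than for FAS. TNFRSF10A shares 224 exonic bases with TNFRSF10A-AS1 and 266 with TNFRSF10A-DT. Both are noncoding RNAs on the opposite strand that the count table does not list. The log2 fold change of TNFRSF10A was 0.45 (standard error 0.12, 95% CI 0.19 to 0.71), and it missed the threshold over all loci (edgeR, Benjamini-Hochberg adjusted p = 0.0693). It passed without knockout replicate 1, at a log2 fold change of 0.50 (Benjamini-Hochberg adjusted p of the edgeR test = 0.0401), and where each library's trend with transcript GC content was removed, at 0.48 (edgeR, Benjamini-Hochberg adjusted p = 0.0189), within a range of 0.0189 to 0.239 over 17 alternatives.

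TNFRSF10B (ENSG00000120889.13, chr8:23020133-23069031, reverse strand) encodes DR5, the other TRAIL receptor with a death domain. Its level was 116, 110 and 104 CPM in the control libraries and 113, 129 and 120 CPM in the BMAL1-knockout-labelled ones. The groups overlapped, since knockout replicate 1 lay below control replicate 1. For TNFRSF10B the log2 fold change was 0.13 (standard error 0.08, 95% CI -0.04 to 0.30; edgeR, Benjamini-Hochberg adjusted p = 0.445). TNFRSF10B shares 377 exonic bases with RHOBTB2 on the opposite strand, which had between 20.6% and 25.9% of its count.

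The decoy receptor TNFRSF10D (ENSG00000173530.6, chr8:23135588-23164027, reverse strand) was at 46.4, 43.6 and 45.5 CPM in the control libraries and at 42.8, 42.5 and 40.1 CPM in the BMAL1-knockout-labelled ones. All 3 of the latter were below all 3 controls, but by less than 1 CPM at the closest pair. For TNFRSF10D the log2 fold change was -0.11 (standard error 0.08, 95% CI -0.29 to 0.06; edgeR, Benjamini-Hochberg adjusted p = 0.511). The other decoy receptor, TNFRSF10C (ENSG00000173535.15, chr8:23102921-23117445, forward strand), was barely detected, with 3, 7 and 10 reads in the control libraries and 12, 12 and 28 reads in the BMAL1-knockout-labelled ones. At 0.244 ± 0.124 and 0.435 ± 0.179 CPM (SD, n = 3) its groups overlapped, and its log2 fold change of 0.84 had a 95% CI from -0.30 to 1.98, too wide at this depth to show a difference. ENSG00000284956, which shares 249 exonic bases with TNFRSF10C on the same strand, had more reads than TNFRSF10C in every library, so the identity of these few reads is uncertain.

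TNFRSF1A (ENSG00000067182.9, chr12:6328757-6342114, reverse strand), the main TNF receptor of most cells, was at 134, 135 and 119 CPM in the control libraries and at 98.5, 115 and 113 CPM in the BMAL1-knockout-labelled ones. Every library labelled BMAL1 knockout was below every control, the opposite order from FAS. The log2 fold change of TNFRSF1A was -0.25 (standard error 0.09, 95% CI -0.44 to -0.06) and missed the threshold over all loci (edgeR, Benjamini-Hochberg adjusted p = 0.165). With the GC trend removed it was -0.22 and passed (edgeR, Benjamini-Hochberg adjusted p = 0.0283), in a range of 0.0283 to 0.451 over 17 alternatives. The difference between FAS and TNFRSF1A in their response was not tested.

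The intracellular members were close to equal in both groups. FADD (ENSG00000168040.5, chr11:70203296-70207390, forward strand) was at 32.4, 31.8 and 29.5 CPM in the control libraries and at 26.9, 31.3 and 29.3 CPM in the BMAL1-knockout-labelled ones. CASP8 (ENSG00000064012.24, chr2:201233443-201361836, forward strand) was at 41.7, 41.2 and 45.2 CPM against 46.2, 40.8 and 41.5 CPM. CFLAR (ENSG00000003402.21, chr2:201116154-201176687, forward strand) was at 56.0, 53.7 and 50.7 CPM against 44.9, 50.0 and 51.7 CPM. In each of these genes the groups overlapped, and knockout replicate 1 was the lowest library for FADD and CFLAR but the highest for CASP8. Their log2 fold changes were -0.10 for FADD (95% CI -0.30 to 0.10), 0.01 for CASP8 (95% CI -0.18 to 0.20) and -0.13 for CFLAR (95% CI -0.32 to 0.06), with edgeR Benjamini-Hochberg adjusted p-values of 0.628, 0.980 and 0.478. The sign of CASP8 turned where the GC trend was removed, to -0.026, and without control replicate 1, control replicate 2 or knockout replicate 1, to -0.012, -0.018 and -0.053. Each of the 3 genes shares exonic bases with a noncoding RNA or pseudogene that the count table does not list.

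Over the 9 members, 1 was called at an adjusted p under 0.05, where 2.37% of all 14860 loci were called, 1.01% higher and 1.36% lower. At an unadjusted p under 0.05 there were 3 members (FAS, TNFRSF10A and TNFRSF1A), where 16.9% of all loci had one. The CPM ranges of the groups did not overlap for 4 members, higher for FAS and TNFRSF10A and lower for TNFRSF10D and TNFRSF1A, where 23.3% of all loci did not overlap. The median log2 fold change of the 9 members was 0.01, as was that of all loci, with 5 members above 0 and 4 below.

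**Figure D2:**
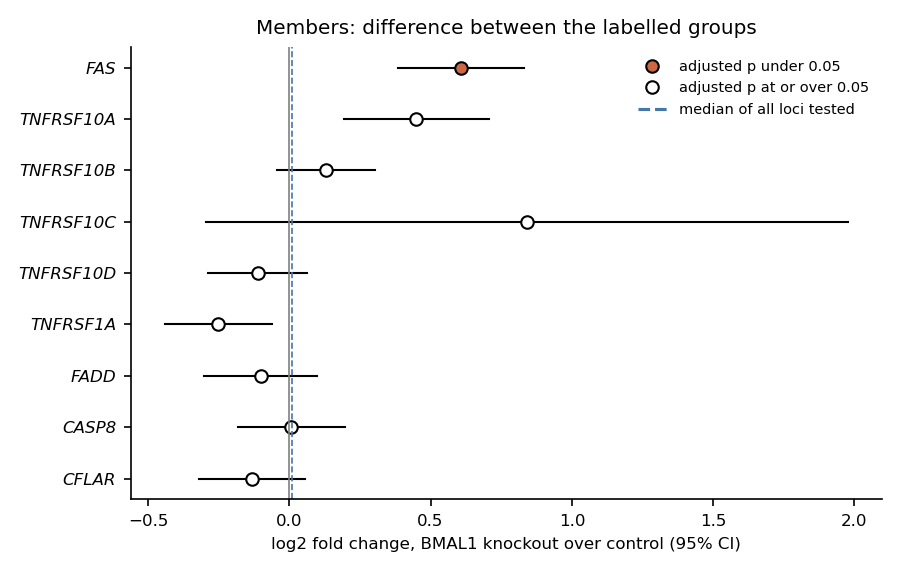
Log2 fold change of each of the 9 members (libraries labelled BMAL1 knockout over control) with its 95% confidence interval; the filled point marks an adjusted p under 0.05 and the dashed line the median of all loci tested. FAS stands at 0.61, the intervals of FAS and TNFRSF10A lie above 0, that of TNFRSF1A lies below 0, and the other 6 cross 0.

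Levels were compared between members as CPM per kilobase of the principal annotated transcript. In the libraries labelled control the order was TNFRSF1A at 59.6 ± 4.29, TNFRSF10B at 27.5 ± 1.45, FADD at 18.3 ± 0.894, CASP8 at 16.1 ± 0.827, TNFRSF10D at 12.8 ± 0.415, FAS at 9.29 ± 0.610, CFLAR at 3.66 ± 0.181, TNFRSF10A at 2.98 ± 0.233 and TNFRSF10C at 0.175 ± 0.0886 CPM per kilobase (SD, n = 3). No pair of neighbours in this order overlapped in range. The lowest FADD library was at 17.3 and the highest CASP8 library at 17.0, and the lowest CFLAR library was at 3.47 and the highest TNFRSF10A library at 3.24 CPM per kilobase. In the libraries labelled BMAL1 knockout, FADD (15.7 to 18.3) and CASP8 (15.3 to 17.4) overlapped. FAS at 14.2 ± 1.66 then stood above TNFRSF10D at 11.8 ± 0.421 CPM per kilobase (SD, n = 3), and TNFRSF10A at 4.08 ± 0.281 above CFLAR at 3.34 ± 0.241 CPM per kilobase (SD, n = 3). Neither of these pairs overlapped in range, but FAS (12.4 to 15.6) overlapped CASP8. The order depends on the length used, and these changes of place hold for the principal transcripts only. Over all annotated exons, FAS was at 1.17 and TNFRSF10D at 12.8, and TNFRSF10A at 2.74 already stood above CFLAR at 2.38 CPM per kilobase in the control group.

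The ligands of these receptors were almost without reads. FASLG, the FAS ligand, had 0 reads in all 6 libraries, which allows up to 0.0689 to 0.112 CPM by library, taking 3 counts as the limit and counting error only. TNFSF10, which encodes TRAIL, had 6, 6 and 0 reads in the control libraries and 0, 0 and 4 in the BMAL1-knockout-labelled ones. LTA had 0, 4 and 12 reads against 6, 7 and 4, and TNFSF15 had 4, 2 and 0 reads against 5, 2 and 0. Of the 5 ligands, TNF alone passed the filter, with 14, 6 and 6 reads against 0, 12 and 15, and its difference was not detectable at this depth (log2 fold change -0.46, standard error 0.75). Whatever the receptor level, the cultures themselves thus held few or no transcripts of these ligands.

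Of 7 further receptors of the family, 6 were tested and 0 were called by edgeR, 0 also had an unadjusted p under 0.05, and DESeq2 and limma-voom did not call any of them. Their levels were low. TNFRSF25, a death receptor known as DR3, was at 2.89 and 3.73 CPM in the control and BMAL1 knockout labelled groups, the one log2 fold change above 0 on this list (0.37). TNFRSF21, or DR6, was at 5.95 and 4.83 CPM, NGFR, the low-affinity neurotrophin receptor, at 3.89 and 3.17 CPM, and TNFRSF1B, the other TNF receptor, at 3.61 and 2.81 CPM. The soluble decoys TNFRSF11B and TNFRSF6B, which bind TRAIL and FAS ligand, were at 1.41 and 1.01 CPM and at 1.43 and 1.12 CPM. All exons of TNFRSF6B are shared with a readthrough gene on the same strand, so its reads cannot be told apart from those of that gene. EDAR had between 0 and 13 reads and was not tested. The median log2 fold change of the 6 was -0.31.

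Of all 71 genes on 7 pathway lists, 63 were tested and 3 were called, 1 higher and 2 lower, with a median log2 fold change of -0.05 against 0.01 over all loci. An unadjusted p under 0.05 was found for 13 of them, 7 higher and 6 lower. Over all loci tested, 2.37% were called and 16.9% had an unadjusted p under 0.05. Both genes called lower belong to the complex that forms on TNFRSF1A. TNFAIP3 (chr6:137867214-137883314), which encodes the ubiquitin-editing enzyme A20 that ends TNF signalling to NF-κB, was at 48.4, 46.8 and 43.8 CPM in the control libraries and at 30.5, 29.5 and 32.9 CPM in the BMAL1-knockout-labelled ones. No library of the latter group came near the controls. The log2 fold change of TNFAIP3 was -0.58 (standard error 0.09; edgeR, Benjamini-Hochberg adjusted p = 0.00547), and its adjusted p stayed under 0.05 in all 17 alternatives. BIRC3 (chr11:102317484-102339403), which encodes the ubiquitin ligase cIAP2, was at 44.1, 43.98 and 45.7 CPM against 34.0, 31.6 and 27.3 CPM. Its controls were within 2 CPM of each other, and all 3 libraries labelled BMAL1 knockout were lower. BIRC3 had a log2 fold change of -0.53 (standard error 0.10; edgeR, Benjamini-Hochberg adjusted p = 0.0163). Its edgeR Benjamini-Hochberg adjusted p was 0.0556, 0.0800 and 0.0820 without control replicate 1, 2 or 3 and 0.050004, just over the threshold, without knockout replicate 2. Both genes are also known targets of NF-κB. Over the 17 genes of this list, all tested, the median log2 fold change was -0.08, with 5 above 0 and 12 below. The most abundant per kilobase was TAX1BP1, an adaptor of A20, at 54.2 CPM per kilobase in the control group, with a log2 fold change of 0.14 (Benjamini-Hochberg adjusted p of the edgeR test = 0.575). TRAF5 and TNIP1, named after their values were seen, had unadjusted p-values under 0.05 at log2 fold changes of 0.35 and -0.23 (edgeR, Benjamini-Hochberg adjusted p = 0.109 and 0.268).

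Among 14 proteins known to bind or modify the receptors, FADD or caspase-8, 13 genes were tested and 1 was called. PTPN13 (chr4:86594315-86815171), which encodes a phosphatase described as a binding partner of the FAS tail, was at 21.5, 20.9 and 21.996 CPM in the control libraries and at 26.5, 28.1 and 30.9 CPM in the BMAL1-knockout-labelled ones. The groups did not overlap, and PTPN13 was higher in the same libraries as FAS. PTPN13 shares 311 exonic bases with MAPK10 on the opposite strand. Its log2 fold change was 0.41 (standard error 0.09; edgeR, Benjamini-Hochberg adjusted p = 0.0430). The call of PTPN13 held in 1 of the 6 fits that left out a library, that without knockout replicate 1, where the edgeR Benjamini-Hochberg adjusted p was 0.0151. It was 0.147, 0.185 and 0.0984 without control replicate 1, 2 or 3 and 0.132 and 0.124 without knockout replicate 2 or 3, and limma-voom gave 0.0510. The most abundant gene of the list was PEA15, a death effector domain protein, at 133 CPM per kilobase in the control group, with a log2 fold change of -0.04 (Benjamini-Hochberg adjusted p of the edgeR test = 0.814). The list had a median of -0.05, with 4 genes above 0 and 9 below, and FAIM2 was not tested, with at most 3 reads in a library.

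In the list of caspases and the mitochondrial step that amplifies the caspase-8 signal, all 15 genes were tested and edgeR called 0, while 5 had an unadjusted p under 0.05. DESeq2 called APAF1 and DIABLO, and limma-voom called 0. The gene with the smallest p was DIABLO, which encodes an antagonist of inhibitor of apoptosis proteins, at 49.5, 46.2 and 46.4 CPM in the control libraries and 40.1, 36.6 and 37.3 CPM in the BMAL1-knockout-labelled ones. DIABLO shares exonic bases with 3 annotated genes, 2 of them on the same strand, so part of its reads cannot be told apart from theirs. The groups of DIABLO did not overlap, and its log2 fold change was -0.32 (standard error 0.08; edgeR, Benjamini-Hochberg adjusted p = 0.0678). APAF1, CASP6 and CASP10, named after their values were seen, had log2 fold changes of 0.29, 0.30 and 1.17, the last on 6 to 30 reads (edgeR, Benjamini-Hochberg adjusted p = 0.0857, 0.179 and 0.175). CYCS, which encodes cytochrome c, was the most abundant at 66.3 CPM per kilobase in the control group, with a log2 fold change of 0.06 (Benjamini-Hochberg adjusted p of the edgeR test = 0.862). The median of the list was 0.05, with 12 genes above 0 and 3 below.

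Of 3 necroptosis genes, RIPK3 and ZBP1 had 0 reads in all 6 libraries, so transcripts of the kinase that receives the death receptor signal in necroptosis were not detected at this depth, though RIPK3 shares exonic bases with a noncoding RNA on the same strand. MLKL, the pore-forming effector, was at 6.85 ± 0.218 and 5.84 ± 0.509 CPM (SD, n = 3; log2 fold change -0.22; edgeR, Benjamini-Hochberg adjusted p = 0.403). Of 10 transcription factors described as acting on FAS or the TRAIL receptor genes, all tested, edgeR as reported, DESeq2 and limma-voom called 0, and 2 had an unadjusted p under 0.05. DDIT3, the stress factor CHOP that acts on TNFRSF10B, was at 31.6 ± 3.03 and 39.4 ± 4.20 CPM (SD, n = 3; log2 fold change 0.32; edgeR, Benjamini-Hochberg adjusted p = 0.145) and was called in 1 of the 17 alternatives, that with the GC trend removed and a replicate block. It shares exonic bases with 3 other genes, 1 of them on the same strand. NFKB1, named after its values were seen, had a log2 fold change of -0.19 (Benjamini-Hochberg adjusted p of the edgeR test = 0.251). RELA, the p65 subunit of NF-κB, was the most abundant per kilobase, with a log2 fold change of -0.15 (Benjamini-Hochberg adjusted p of the edgeR test = 0.396). The median of the 10 was -0.05.

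**Figure D3:**
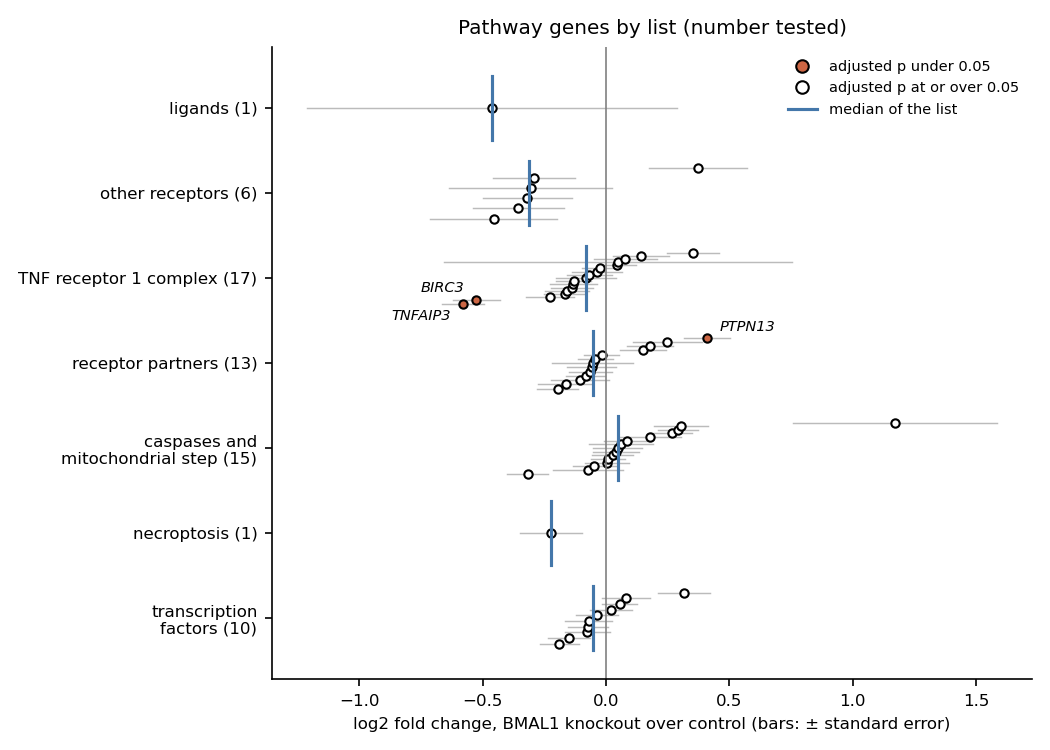
Log2 fold change of each tested gene on 7 pathway lists (libraries labelled BMAL1 knockout over control) with ± 1 standard error, the number tested in brackets, the list's median as a bar and filled points where the adjusted p was under 0.05. TNFAIP3 and BIRC3 lie at -0.58 and -0.53 in the TNF receptor 1 complex, and PTPN13 lies at 0.41 among the receptor partners.

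The genes beside FAS on chromosome 10 went in both directions, 5 above 0 and 5 below. Of the 10 tested named genes nearest to FAS, 5 on either side, 4 were called, ACTA2 higher and the interferon-induced genes IFIT2, IFIT3 and IFIT1 lower, where 2.37% of all loci were called, and the median log2 fold change was 0.00. ACTA2 was at 1.82 ± 0.190 and 3.51 ± 0.277 CPM (SD, n = 3), a log2 fold change of 0.95 (Benjamini-Hochberg adjusted p of the edgeR test = 0.0182). IFIT3 was at 200 ± 7.87 and 143 ± 4.14 CPM (SD, n = 3), and its log2 fold change was -0.48 (edgeR, Benjamini-Hochberg adjusted p = 0.00545). IFIT2 and IFIT1 had log2 fold changes of -0.39 and -0.53 (edgeR, Benjamini-Hochberg adjusted p = 0.0333 and 0.0338). IFIT3 passed in every fit that left out a library, IFIT2 and IFIT1 in 1 of 6 each, that without knockout replicate 1, and ACTA2 in 2 of 6, those without knockout replicate 1 or 3. LIPA, the lysosomal acid lipase gene next to FAS, was at 0.08.

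Around the TRAIL receptor genes, 11 tested neighbours were compared, C8orf58, CCAR2, BIN3, EGR3, RHOBTB2, CHMP7, R3HCC1, LOXL2, ENTPD4 and SLC25A37 outside the cluster and ENSG00000284956 within it. EdgeR called 0 of them, LOXL2 (log2 fold change -0.32) had an unadjusted p under 0.05, and the median was -0.07. Around CFLAR and CASP8 on chromosome 2, MPP4 was called of 11 neighbours, with a log2 fold change of -1.52 (Benjamini-Hochberg adjusted p of the edgeR test = 0.00632, and 0.0574 without control replicate 3). CASP10, which lies between both members, was the highest there at 1.17. The median there was 0.04.

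The genes whose log2 CPM over the 6 libraries followed FAS most closely were NEK3, PBLD, C3orf18, PLEKHG7 and GABPB2, with Pearson's r from 0.988 to 0.993 over 6 libraries, the highest of 13577 named genes compared. With groups that stand apart and so many genes compared, such values are a description only. NEK3, a kinase gene, was at 5.55, 5.46 and 4.64 CPM in the control libraries and at 8.43, 7.67 and 6.66 CPM in the BMAL1-knockout-labelled ones, in the same order of libraries as FAS. PBLD, on chromosome 10 as FAS is, had a log2 fold change of 0.49 (Benjamini-Hochberg adjusted p of the edgeR test = 0.0389), lost in 4 of 6 fits that left out a library (those without each control replicate and without knockout replicate 2, up to 0.145). The other 4 were not called.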

How the data were processed

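Whole-number read counts per locus were used as deposited. The authors state that adapter-bearing and low-quality reads were removed, and that the count of a locus covers reads with a single place in hg38; the submitters' processing notes name fastp 0.20.1 and HISAT2 2.0.4. The annotation and the use of strand are not given in the sources used here. Coordinates, lengths and overlaps came from GENCODE v44, in which 20018 of 22354 loci were found by symbol. With edgeR 4.0.16 in R 4.3.3, counts were TMM-normalized, filtered by edgeR's default, and tested with the robust quasi-likelihood test (two-sided), with Benjamini-Hochberg adjustment across 14860 loci. The biological coefficient of variation was 0.108. On simulated data, 84.5% of 200 genes changed by a log2 fold of 1 among 14708 were recovered, and 68% at 0.6 among 14707. Spread between replicates exceeded counting noise (variance ratios 5.36 to 46.5), and knockout replicate 1, the highest library for FAS, stood apart from knockout replicates 2 and 3 (31.6 and 46.5, against 7.24 between those). Named genes were all members, called pathway genes, each list's most abundant gene and smallest p, ligands, other receptors, 5 neighbours per side, and the 5 loci most like FAS. Members and lists were chosen with earlier results of these data known. Alternatives were other scalings, filters, a replicate block, DESeq2 1.42.0, limma-voom 3.58.1, thinning, GC trend removal (GC known for 91.4% of loci), each library left out, and, added after seeing the data, edgeR's older fit.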

Additional observations from a re-analysis of the deposited data

How the results depend on the processing

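FAS kept its direction in all 17 alternatives (0.53 to 0.70 on the log2 scale without 1 library each), and TNFAIP3 kept its call in all of them. With the GC trend removed, TNFRSF10A was called at 0.48 (0.48 with the replicate block) and TNFRSF1A at -0.22 (-0.22), CASP8 turned to -0.0258 (-0.0263), 3 members (3 with the block) and 5 pathway genes (6) were called, and 522 loci were called higher and 614 lower (406 and 496). The replicate numbers do not pair the libraries (correlations of same-numbered deviations -0.12, -0.0221 and -0.0298); with the replicate block alone, 97 loci were called higher and 119 lower against 150 and 202, FAS was at 0.60 (edgeR, Benjamini-Hochberg adjusted p = 0.0130), and PTPN13, IFIT2 and PBLD were not called (0.0952, 0.0735 and 0.0735). DESeq2 called 256 higher, 379 lower and 5 pathway genes. Scaling by library size alone gave 175 higher and 155 lower. Without 1 library each, TNFRSF10A ranged from 0.40 to 0.51, CASP8 from -0.0533 to 0.0535 and BMAL1 from 0.50 to 0.69; between 39 (without control replicate 2) and 323 loci (without knockout replicate 1) were called higher and 65 to 360 lower, 0 to 2 members and 1 to 5 pathway genes. The count of loci called, 352 as reported, moved by over 1.5 times without each control replicate and without knockout replicates 1 and 2. It also moved by over 1.5 times with the GC trend removed (1136, and 902 with the block), with the replicate block alone (216) and in DESeq2 (635). Fits without a library rest on fewer samples; the cause of the other shifts was not tested. Depth limits TNFRSF10C, CASP10 and the ligands, which had at most 30 reads in a library.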

Other observations

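Ratios between members were computed per library from CPM per kilobase of the principal transcripts, and were chosen after their values were seen. Their size depends on the length used. Over all annotated exons, FAS was at 1.17 and CFLAR at 2.38 CPM per kilobase in the control group, so that FAS stood below CFLAR. The decoy receptors TNFRSF10C and TNFRSF10D made up 29.3%, 28.9% and 31.3% of the summed TRAIL receptor level in the control libraries and 27.8%, 25.1% and 25.7% in the BMAL1-knockout-labelled ones. The ranges did not overlap, and TNFRSF10D made up nearly the whole decoy share. The ratio of FAS to CFLAR was 2.56, 2.57 and 2.48 against 5.09, 4.23 and 3.50, and that of FAS to TNFRSF1A was 0.158, 0.152 and 0.158 against 0.345, 0.273 and 0.239. Both were higher in each library labelled BMAL1 knockout, with a wider spread there than among the controls. The ratio of CASP8 to CFLAR was 4.09, 4.21 and 4.90 against 5.66, 4.49 and 4.42, with overlapping groups.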
